A study of Homo sapiens with 2 samples.

Results

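The 10 genes described here (BMP4, BMP2, BAMBI, SMAD6, SMAD7, ID1, ID2, ID3, SKIL and PMEPA1) are ligands, inhibitors and targets through which signalling by bone morphogenetic proteins (BMP) and by transforming growth factor beta (TGF-beta) feeds back on itself. They were taken by symbol from the platform annotation, all 10 had probe sets of their own, and they stand among 19775 genes with at least 1 probe set of a single symbol. Total RNA of HCT15, an established human colorectal adenocarcinoma line, was hybridised to 1 Affymetrix array per group. The cells of the first group received Cas9 directed by a guide RNA to ARID3B and have the genotype label ARID3B knockout, and the second group is labelled control. ARID3B is a transcription regulator that binds DNA through an AT-rich interaction domain, and the comparison asks how transcripts of the edited cells differ from those of the control. Both cultures grew in RPMI medium with 10% fetal bovine serum. Serum can itself carry ligands of this pathway. Whether the edited cells were a clone or a pool, and what the control cells received, is not stated by the labels.

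In this pathway a ligand brings together type I and type II receptors, which phosphorylate receptor SMAD proteins (SMAD1, SMAD5 and SMAD9 for BMP, SMAD2 and SMAD3 for TGF-beta). These enter the nucleus with SMAD4 and switch on target genes, among them the pathway's own brakes. SMAD6 and SMAD7 block receptors and receptor SMADs, BAMBI is a receptor-like protein without kinase activity, and SKIL and PMEPA1 restrain SMAD-driven transcription. ID1, ID2 and ID3 are inhibitors of basic helix-loop-helix (bHLH) transcription factors and are among the best known BMP targets. In the intestine BMP signalling is strongest away from the crypt base and favours differentiation over stem cell renewal.

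The regulatory sequence of the genes whose values carry the comparison is shown first. For BMP4, BAMBI and SMAD6, each more than 2-fold lower on the knockout-labelled array, and for ID1, the only one of the compared genes that was higher, the 300 bases around the annotated start (250 before it and 50 from it on) are given from RefSeq, build GRCh38.p14. They lie at chr14:53955001-53955300 on the minus strand (BMP4, the most upstream of its 3 annotated starts), chr10:28677271-28677570 on the plus strand (BAMBI), chr15:66701986-66702285 on the plus strand (SMAD6) and chr20:31605039-31605338 on the plus strand (ID1). Capitals mark GTCTAGAC, the palindromic SMAD-binding element, and GGCGCC, the GC-rich element bound by SMAD proteins of the BMP branch.
BMP4: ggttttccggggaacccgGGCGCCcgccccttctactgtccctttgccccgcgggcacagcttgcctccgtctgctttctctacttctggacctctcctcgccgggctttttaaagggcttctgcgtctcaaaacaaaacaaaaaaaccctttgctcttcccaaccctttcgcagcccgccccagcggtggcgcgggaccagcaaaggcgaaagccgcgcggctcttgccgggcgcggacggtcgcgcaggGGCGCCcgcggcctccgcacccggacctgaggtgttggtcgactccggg
BAMBI: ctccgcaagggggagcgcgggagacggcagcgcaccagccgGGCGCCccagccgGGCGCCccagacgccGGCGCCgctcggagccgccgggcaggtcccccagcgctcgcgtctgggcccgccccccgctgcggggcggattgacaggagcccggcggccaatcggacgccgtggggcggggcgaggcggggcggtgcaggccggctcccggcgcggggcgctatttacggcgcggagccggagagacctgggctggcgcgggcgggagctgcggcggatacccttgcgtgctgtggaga
SMAD6: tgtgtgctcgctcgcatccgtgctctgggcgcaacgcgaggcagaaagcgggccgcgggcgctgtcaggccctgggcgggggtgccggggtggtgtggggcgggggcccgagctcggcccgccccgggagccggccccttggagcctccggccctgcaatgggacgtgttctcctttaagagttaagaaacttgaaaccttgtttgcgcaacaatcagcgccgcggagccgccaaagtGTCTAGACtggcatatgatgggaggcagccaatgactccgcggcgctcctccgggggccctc
ID1: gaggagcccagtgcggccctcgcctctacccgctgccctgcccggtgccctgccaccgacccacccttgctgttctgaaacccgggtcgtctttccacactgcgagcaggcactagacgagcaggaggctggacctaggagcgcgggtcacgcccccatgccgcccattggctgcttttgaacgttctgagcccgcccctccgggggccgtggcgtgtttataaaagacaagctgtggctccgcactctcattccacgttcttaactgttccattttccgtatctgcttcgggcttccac

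The SMAD palindrome stood in 1 of the 16 windows found for 9 of the 10 genes, that of SMAD6, at position -12 when the start base is counted as 0. It occurred in 71 of all 35116 windows (0.202%) and in 21 of the 15028 windows of compared genes (0.140%). GGCGCC stood in 4 of the 16 windows, those of BAMBI and SKIL and single windows of BMP4 and PMEPA1. It had 3 copies in BAMBI at positions -209, -196 and -181 and 2 in BMP4 at -232 and 1. Across all windows 19.2% held it, and 28.2% of those of compared genes. It is a GC-rich word in GC-rich sequence: the GC content was 80.0% in the BAMBI window and 66.0% in that of BMP4, against a median of 58.7% over all windows. Neither element was found in the ID1 window. Sequence outside the windows was not searched, so absence from a window does not show that ID1 or another gene lacks an element. Other words were searched on both strands as well. CAGACA was found in 2 of the 16 windows, CTTTGA, the core of the TCF site of Wnt signalling, in 2 and TGACG in 3. Across all windows 16.9%, 12.9% and 24.6% held them, and 13.2%, 9.18% and 31.2% of those of compared genes. The TCF core stood in a single SMAD7 window, at position -65, and in the ID3 window, at -179. It was absent from the windows of BMP4 and BAMBI. Both SMAD elements read the same on both strands, and overlaps between words were not removed. No window of the other two BMP4 starts held either SMAD element. BMP2 had no match in the table. A match is a run of letters and was not tested for binding here.

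The deposited values are on the log2 scale and were normalised by RMA, so a difference of 1 is 2-fold and every difference is relative to the rest of the array. The probe set with the highest mean over the arrays stands for a gene, which is compared when the higher of its 2 values reaches 4.59, the median of all probe sets (the floor). Of the 10 genes 8 were compared, and BMP2 and PMEPA1 were under the floor on both arrays. Without replicate arrays no test could be run, and the precision is limited by having 1 array in each group. Each difference is set beside the spread among similarly expressed genes, the scaled median absolute deviation of their differences in 1 of 10 bins of mean expression, which ran from 0.255 to 0.437. In such bulk RNA, fewer cells with a transcript and less of it per cell cannot be told apart.

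The labels were checked on these arrays. ARID3B had a value of 6.09 on the knockout-labelled array and 5.12 on the control array. It was therefore higher, not lower, where it is labelled knocked out, by 0.97, and every direction given here rests on labels that the targeted transcript did not bear out. Where its single probe set lies relative to the edit is unknown, so it may check nothing. Of 13 markers of colorectal epithelium 10 reached the floor, as did 12841 of all 19775 genes. EPCAM, KRT8, KRT18 and KRT19 were bright. Others were dim, such as CEACAM5 (5.25 on the knockout-labelled array, 5.09 on the control array) and GPA33 (4.99 and 4.42). KRT20, CDH17 and LGALS4 were under the floor. Of the markers of other cell types 3 of 8 fibroblast, 3 of 6 measured leukocyte (of 9 listed) and 2 of 6 endothelial genes reached the floor, none past 2-fold in its brightest probe set. They were COL1A1, DCN, THY1, CD3E, CD14, ITGAM, PECAM1 and TEK. COL1A1 had 7.12 on the knockout-labelled array and 6.87 on the control array, and CD14 had 6.54 and 6.51. The 2 COL1A1 probe sets that reached the floor did not share a direction, and the mean difference over all 5 was -0.70. COL1A2, COL3A1, PTPRC, VWF and CDH5 were among those under the floor. The poly-A spike-ins (24 probe sets), control transcripts usually spiked into the RNA, had a mean difference of -1.19, or 2.28-fold lower, and their part in the results was not tested. Scaling on them adds 1.19 to every difference and moves the median of all genes to 1.22, against 0.04 as deposited.

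Of the 8 compared genes 3 were at least 2-fold lower on the knockout-labelled array and none was 2-fold higher, whereas scaling on the spike-ins left BAMBI lower and put ID1 and ID3 2-fold higher. That scaling turned SMAD6, SMAD7, SKIL, ID2 and ID3 from below to above 0, and BAMBI and BMP4 stayed below it. Among all 12841 compared genes 3.79% were 2-fold lower, 1.05% were 2-fold higher and 4.84% were past 2-fold in either direction. The 3 genes were BAMBI, BMP4 and SMAD6, and SMAD7 was also past 1.5-fold, at which 10.5% of all compared genes were lower and 5.83% higher. The median difference of the 8 genes was -0.45, against 0.04 for all compared genes. Of the 8, 7 lay below 0, against 45.1% of all compared genes. These are descriptions of a chosen group on 2 arrays. BAMBI, BMP4, SMAD6 and SMAD7 had the largest differences, while the inhibitor SKIL and the targets ID1, ID2 and ID3 lay between -0.27 and 0.39.

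**Figure D1:**
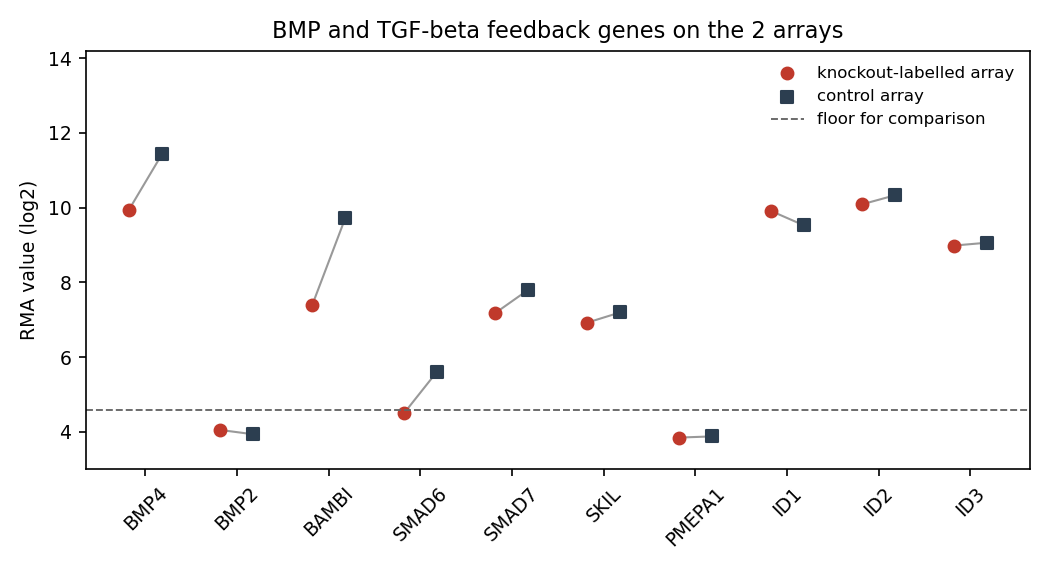
RMA values (log2, vertical axis) of the 10 feedback genes on the knockout-labelled array (circles, left of each pair) and the control array (squares, right). BAMBI and BMP4 stand well apart between the arrays, SMAD6 falls just under the floor of 4.59 (dashed line) on the knockout-labelled array, and BMP2 and PMEPA1 lie under it on both; values of different genes are not comparable with each other.

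BMP4, the one well-measured BMP ligand of the group, is a secreted dimer that signals through BMP receptors and has been described as a target of beta-catenin in colorectal cancer cells. Its value was 9.94 on the knockout-labelled array and 11.42 on the control array. The difference of -1.49, or 2.80-fold lower, was 5.82 times the spread of 0.255 among similarly expressed genes. Among the 1284 genes of that bin, the most highly expressed, only 1 other gene was as low or lower, and among all 12841 genes 159 were, BMP4 included. BMP4 therefore differed strongly for a bright gene, a range in which most differences were small. It was measured by 1 probe set, so that no second probe set bears on the value.

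BMP2, a close relative of BMP4 that uses the same receptors, was too dim to be compared. Its brighter probe set had values of 4.05 on the knockout-labelled array and 3.93 on the control array. The other probe set stood at 3.88 on the knockout-labelled array and 3.74 on the control array. Both differences, 0.12 and 0.14, were of the size common among dim probe sets: over the 25982 probe sets under the floor on both arrays the scaled median absolute deviation was 0.230 and the median 0.04. A change in BMP2 was not detectable at this signal.

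BAMBI had the largest difference of the 10 genes. BAMBI resembles a type I receptor outside the cell but lacks the kinase inside it, and so acts as a decoy for BMP, activin and TGF-beta. It is also a known target of beta-catenin. The value was 7.39 on the knockout-labelled array and 9.71 on the control array, so that it differed by -2.33 and was 5.01-fold lower. That was 5.99 times the spread of 0.388 among similarly expressed genes. None of the other genes of its bin of 1284 was as low, and 36 of all 12841 compared genes were as low or lower, BAMBI included. BAMBI too had a single probe set.

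**Figure D2:**
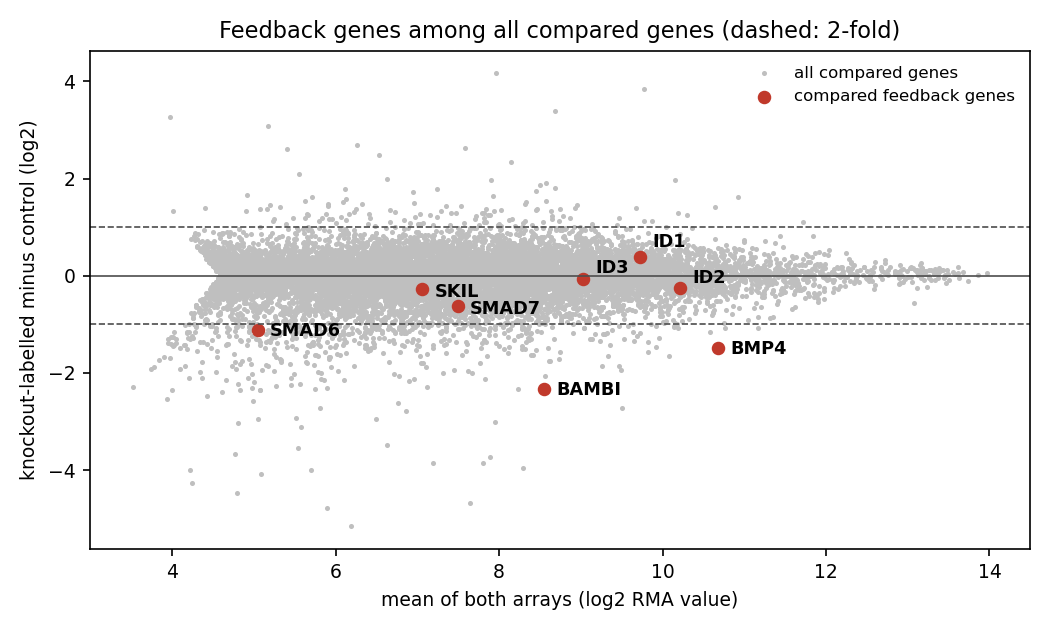
Difference between the knockout-labelled and the control array (log2, vertical axis) against the mean of both (log2 RMA value, horizontal axis) for all 12841 compared genes (grey) and the 8 compared feedback genes (red), with 2-fold marked by dashed lines. BAMBI at -2.33 and BMP4 at -1.49 lie outside the bulk of genes of their expression, SMAD6 at -1.11 sits at the dim end, and ID1, ID2, ID3 and SKIL lie inside it.

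SMAD6 and SMAD7 are the inhibitory SMADs. SMAD6 acts mainly on the BMP branch and SMAD7 on both branches, and both genes are induced by the signals they limit. The brightest SMAD6 probe set had a value of 4.49 on the knockout-labelled array, just under the floor, and 5.60 on the control array, so that it differed by -1.11. Set against the floor, SMAD6 was at least 2.02-fold lower. In its bin of 1284 genes 50 were as low or lower, SMAD6 included. The other SMAD6 probe sets did not share this direction. They differed by 0.19, 0.31 and 0, all under the floor on both arrays, and the mean over the 4 probe sets was -0.15. With 64 linear units added to both arrays, which shrinks differences of dim probe sets, the SMAD6 difference was -0.38. The lower value of SMAD6 thus rests on 1 dim probe set.

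SMAD7 was measured by 1 probe set well above the floor. It had a value of 7.18 on the knockout-labelled array and 7.81 on the control array. The difference of -0.62, or 1.54-fold lower, was 1.51 times the spread of 0.412 among similarly expressed genes. In its bin 137 of 1284 genes were as low or lower, so that a difference of this size was common on these arrays.

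SKIL, also called SnoN, binds SMAD complexes and represses their targets until TGF-beta signalling degrades it, and is then itself induced as a target. The brightest SKIL probe set had a value of 6.92 on the knockout-labelled array and 7.20 on the control array. The difference of -0.27 was smaller than the spread of 0.437 among similarly expressed genes. Its 4 other probe sets were under the floor on both arrays and differed by 0.19, 0.33, 0 and 0.11. They were too dim to bear on a direction, so that the SKIL difference rests on 1 probe set.

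PMEPA1, a membrane protein that sequesters SMAD2 and SMAD3 and is strongly induced by TGF-beta in many epithelial cells, was under the floor in all of its 3 probe sets. The brightest had 3.84 on the knockout-labelled array and 3.88 on the control array. The other two were higher by 0.16 and 0.11, within the spread of dim probe sets. No difference in PMEPA1 was detectable at this signal.

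**Figure D3:**
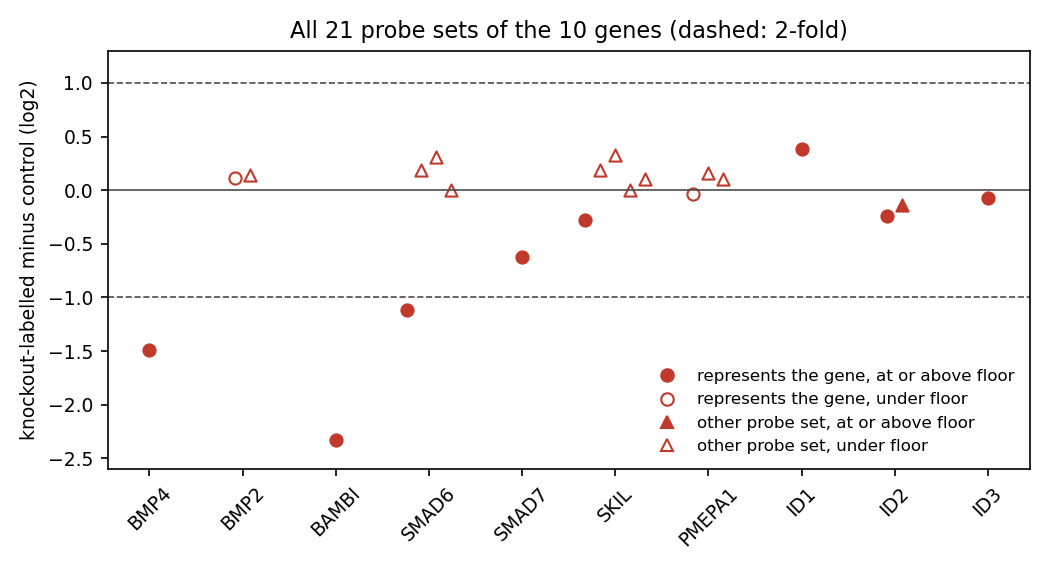
Difference between the arrays (log2, vertical axis) for all 21 probe sets of the 10 genes, with the probe set that represents a gene as a circle, the others as triangles, and those under the floor on both arrays hollow. All 12 hollow symbols lie between -0.03 and 0.33, whereas 8 of the 9 filled ones lie below 0; for SMAD6 and SKIL the hollow symbols are not on the side of the filled one.

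Across the group, 9 of the 21 probe sets reached the floor and 8 of these were lower on the knockout-labelled array. They are the probe sets that represent the 8 compared genes and the second of ID2, so that this largely repeats the count by gene. By gene, 45.1% of all compared genes were lower. Of the 12 dim ones, 9 were above 0, 1 was below and 2 had the same value on both arrays. Such ties were common in the table, with 3678 of 54613 probe sets (6.73%) at identical values. Of all dim probe sets 51.7% lay above 0. Of the 10 genes 5 had only 1 probe set, and ID2 alone had a second one above the floor.

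ID1, ID2 and ID3 bind E proteins and keep them from DNA, and thereby hold back differentiation. ID1 had a value of 9.92 on the knockout-labelled array and 9.53 on the control array, so that it differed by 0.39 and was 1.31-fold higher. This was 1.06 times the spread of 0.366 among similarly expressed genes, and 212 of the 1284 genes of its bin were as high or higher. ID1 was the only compared gene of the 8 above 0.

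For ID2 the brighter probe set had 10.09 on the knockout-labelled array and 10.33 on the control array, so that it differed by -0.24. The other, of a kind that can match several genes, had 8.42 on the knockout-labelled array and 8.56 on the control array, so that it differed by -0.14. Both were lower by less than the spread of 0.255. ID3 had 8.98 on the knockout-labelled array and 9.06 on the control array, so that it differed by -0.08, which is 0.209 times the spread. The 3 ID genes had differences of both signs, and none reached 1.5-fold in either direction.

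The rest of the pathway was counted by role, over 10 lists that share some genes. Outside the 10 feedback genes 95 listed genes were compared, of which 2 (2.11%) were 2-fold higher and 4 (4.21%) were 2-fold lower, against 1.05% and 3.79% of all compared genes. Their median difference was 0. The genes past 2-fold were TAGLN and BHLHE40 upward and ASCL2, TBX3, THBS1 and INHBB downward. INHBB is counted by its measured values but was below the floor in the knockout-labelled cells, against which it was at least 1.82-fold lower, so that 3 of the 4 lower genes had both values above the floor.

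Among BMP and GDF ligands 8 of 16 were compared. BMP4 was the one gene past 2-fold, and the median was 0.02. With the floor at the 75th percentile the median was -0.77, but only BMP4 (-1.49) and BMP8B (-0.05) were then compared. Beside BMP4, BMP8A (0.35) and GDF7 (-0.31, below the floor on the knockout-labelled array) differed most. BMP7 stood at 5.77 on the knockout-labelled array and 5.80 on the control array. Of the TGF-beta, activin and nodal ligands 8 of 16 were compared, with a median of -0.09. INHBB, the beta-B subunit of activin, had 4.43 on the knockout-labelled array and 5.45 on the control array, which against the floor is at least 1.82-fold lower. GDF11, a ligand of activin receptors, differed by -0.69 and was lower in all of its 4 probe sets above the floor. The difference of TGFB2 was -0.41 by its brightest probe set. Another TGFB2 probe set, at 3.74 and so below the floor in the knockout-labelled cells and at 4.75 in the control cells, was at least 1.12-fold lower. TGFB1 differed by 0.33.

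The receptors held no gene past 2-fold among 12 compared, and their median was 0.07. The type I receptor TGFBR1 had 8.74 on the knockout-labelled array and 8.68 on the control array. The type II receptor TGFBR2 had 6.06 on the knockout-labelled array and 6.17 on the control array. Both differences, 0.06 and -0.12, were smaller than the spread among similarly expressed genes. TGFBR3, the betaglycan coreceptor, was higher in both of its probe sets, by 0.80 and 0.53. BMPR2, the type II receptor for BMP, differed by -0.87 in its brightest probe set, but its 4 probe sets above the floor on both arrays ranged from -0.87 to 0 and the mean over all was -0.20. Another BMPR2 probe set, under the floor on the control array, was at least 1.02-fold higher. BMPR1A, the main type I receptor for BMP, was not analysed here.

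The signal-carrying SMADs were measured by several probe sets each, and none was past 1.5-fold in its brightest. SMAD1, which carries the BMP signal, had 8.20 on the knockout-labelled array and 8.69 on the control array, so that it differed by -0.49, with -0.45 in its other probe set above the floor. SMAD3, which carries the TGF-beta signal, had 7.40 on the knockout-labelled array and 6.96 on the control array, so that it differed by 0.44, and its 4 probe sets ranged from 0.23 to 0.44. SMAD2 (0.09), SMAD4 (0.09) and SMAD5 (-0.04) differed by less than the spread in their brightest probe sets, but their probe sets disagreed. Those of SMAD5 ranged from -0.62 to 0.07, with 4 of 5 lower and a mean of -0.29, those of SMAD2 from -0.63 to 0.17 with a mean of -0.07, and the 3 of SMAD4 above the floor from -0.14 to 0.17. SMAD9, the third SMAD of the BMP branch, was higher by 0.44 in its brightest probe set, and its other probe set, under the floor on the control array, was at least 1.31-fold higher. Of the partners, RUNX2 (-0.68) and SP1 (0.55) differed most, and the probe sets above the floor on both arrays ranged from -0.68 to -0.12 for RUNX2 and from -0.66 to 0.55 for SP1.

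The intracellular inhibitors, a list that also holds the receptor-like BAMBI, were the best measured class, with 21 of 22 genes compared. Of these 2, BAMBI and SMAD6, were 2-fold lower, against 3.79% of all compared genes. Without the feedback genes the median of the class was 0.05 over 17 genes and none was past 2-fold. TGIF1, a corepressor of SMAD2, was higher by 0.58, and WWP1, a ubiquitin ligase of the pathway, differed by -0.55, each with all probe sets above the floor on the same side. The ubiquitin ligases SMURF1 (0.23) and SMURF2 (-0.09) and the SKIL relative SKI (-0.43) were within 1.5-fold.

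Extracellular antagonists were mostly dim. Only 4 of 16 were compared, and NOG, CHRD and GREM1, the classic antagonists of BMP, were under the floor on both arrays. NBL1 (0.66) and FSTL3 (-0.22) differed most. Genes that store or activate latent TGF-beta had a median of -0.47 over 9 compared genes, of which 5 lay below 0 and 4 above it. THBS1, which activates latent TGF-beta, had 5.79 on the knockout-labelled array and 6.94 on the control array, so that it differed by -1.16, and its 3 probe sets above the floor ranged from -1.20 to -0.56. LTBP3, a binding protein of the latent complex, differed by -0.83, with probe sets between -0.83 and 0. ITGB8, an integrin that releases TGF-beta, differed by -0.53. Those above 0 in their brightest probe sets were FURIN (0.43), BMP1 (0.22), DCN (0.10) and LTBP4 (0.10). Without the probe sets that may match more than 1 transcript, the median of this list was 0, and it was 0.055 with no floor.

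**Figure D4:**
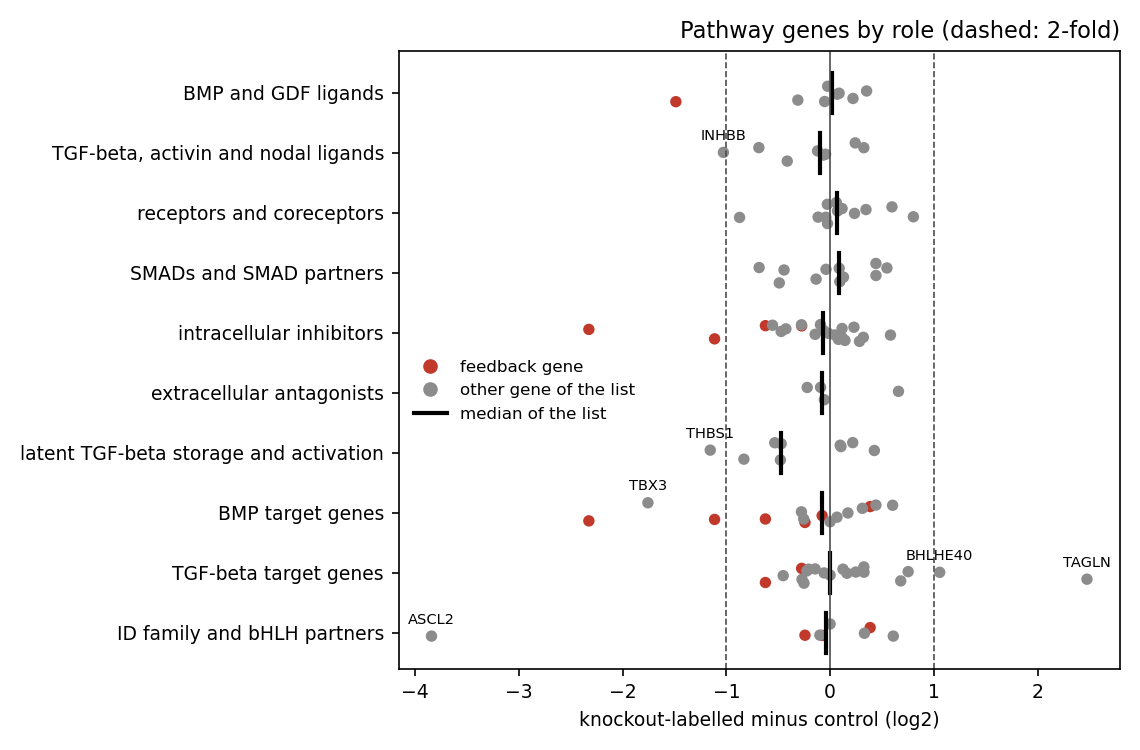
Difference between the knockout-labelled and the control array (log2, horizontal axis) for the compared genes of 10 pathway lists (rows), with feedback genes in red, other genes in grey, list medians as black bars and 2-fold as dashed lines. Most medians lie near 0 (from -0.09 to 0.09), that of latent TGF-beta storage and activation lies at -0.47, and single genes such as ASCL2, TBX3 and TAGLN stand far from their lists.

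Target genes of BMP had a median of -0.08 over 15 compared genes, with 3 of them 2-fold lower and none 2-fold higher. Among all compared genes 3.79% were 2-fold lower and 1.05% were 2-fold higher. Of the 3 lower targets, BAMBI and SMAD6 are feedback genes, SMAD6 by 1 dim probe set. The third was TBX3, a T-box factor that represses cell cycle inhibitors and is a target of several pathways, Wnt among them. TBX3 had 7.73 on the knockout-labelled array and 9.49 on the control array, so that it differed by -1.76, and its 3 probe sets above the floor on both arrays ranged from -2.12 to -1.76. Another TBX3 probe set, under the floor at 4.28 on the knockout-labelled array and at 5.49 on the control array, was at least 1.87-fold lower. MSX2, a homeobox factor induced by BMP, had 1 probe set at 0.60 and another at -0.48. Without the feedback genes the median of the list was 0.07.

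Target genes of TGF-beta had a median of 0 over 19 compared genes, with 2 of them 2-fold higher and none 2-fold lower. Among all compared genes 1.05% were 2-fold higher and 3.79% were 2-fold lower. TAGLN, an actin-binding protein, had 7.77 on the knockout-labelled array and 5.30 on the control array, so that it differed by 2.48, but its 3 probe sets ranged from 0.26 to 3.03. BHLHE40, a transcriptional repressor, had 7.56 on the knockout-labelled array and 6.50 on the control array, so that it differed by 1.06, with 0.48 in its other probe set. JUNB (0.75) and ANGPTL4 (0.68) were the next, while CCN2, the connective tissue growth factor, differed by -0.45 and CDKN1A by -0.22. TAGLN, BHLHE40 and JUNB are targets of several pathways.

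The bHLH factors that ID proteins hold in check were set beside the ID genes. TCF3 differed by -0.10, with probe sets in both directions, and TCF12 by 0.61, with 0.83 in its other probe set above the floor. Both encode E proteins, the direct partners of ID proteins. ASCL2, a bHLH factor of intestinal stem cells, had 5.27 on the knockout-labelled array and 9.11 on the control array, so that it differed by -3.84. Its other probe set had 1.70 on the knockout-labelled array, below the floor, and 5.31 on the control array, which is at least 1.65-fold lower. ATOH1, the bHLH factor of secretory cells, had 4.99 on the knockout-labelled array and 4.66 on the control array, so that it differed by 0.33.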

How the data were processed

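The deposited values are log2 expression values on which the authors ran RMA; its version is not given, and the name comes from the submitters' processing notes. RMA corrects background, equalises the distributions of the arrays and summarises each probe set. It removes any difference in total RNA and compresses differences of dim probe sets. Of 54613 non-control probe sets 41091 had 1 gene symbol, 1801 had several and 11721 had none, and only the first kind was used. Symbols were checked by Entrez identifier against a RefSeq table of GRCh38.p14, in which 41037 were found. Differences are knockout-labelled minus control. The alternatives changed the floor, the choice of probe set, the scaling, the intensity trend (loess, span 0.3) and the fold threshold. Genes named outside the feedback genes are those of each list past 2-fold, the next 2 by size, and core receptors and SMADs, and a few further list members chosen after their values were seen. The 10 genes and all lists were chosen with earlier results of these data known. The steps ran in Python 3.11.15 with pandas 2.3.3 and statsmodels 0.14.6 and were tested on simulated data.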

Additional observations from a re-analysis of the deposited data

How the results depend on the processing

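No paired analysis was possible because each group has 1 array. BAMBI, BMP4, SMAD6, SMAD7, SKIL, ID2 and ID3 were lower under every alternative that did not use the spike-ins and kept the gene. A steady sign alone says little about size, since ID3 ranged there only from -0.17 to -0.07. BMP4, ID1, ID2 and ID3 have only probe sets of the kind that can match several transcripts (names ending in _s_at or _x_at), so that leaving these out kept BAMBI as the 1 gene past 2-fold, and SMAD6 was under the floor there and as a mean of its probe sets. With the floor at the 75th percentile, with averaged probe sets and with 64 units added, 2 feedback genes were 2-fold lower in place of 3. At 3-fold 1 feedback gene was lower. Scaling on the spike-ins gave 2 feedback genes higher and 1 lower, with a median of 0.74: BAMBI was at -1.14, BMP4 at -0.30, SMAD7 at 0.56, ID1 at 1.57, and SMAD6 turned to 0.073. All 12841 genes then gave 9137 higher and 44 lower, and the other listed genes 68 higher and 1 lower. The list medians became 1.21 for BMP and GDF ligands, 1.09 for the other ligands, 1.25 for receptors, 1.27 for SMADs, 1.12 for intracellular inhibitors, 1.11 for antagonists, 0.72 for latent TGF-beta, 1.11 for BMP targets, 1.19 for TGF-beta targets and 1.15 for the ID family.

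Among all genes the count higher, 135 as reported, was 83 with averaged probe sets, 46 with 64 units added, 749 at 1.5-fold and 25 at 3-fold. The count lower, 487 as reported, was 290 with the floor at the 75th percentile, 117 with 64 units added, 1349 at 1.5-fold and 133 at 3-fold. Of the other listed genes 9 were higher and 8 lower at 1.5-fold, and 1 and 2 at 3-fold. With 64 units added 1 was higher and 2 lower. With averaged probe sets or ribosomal protein scaling 1 was higher, and without probe sets of several transcripts 0. The median of BMP and GDF ligands was -0.77 with the higher floor, where only BMP4 and BMP8B were compared. The antagonist median was 0.28 with that floor and without probe sets of several transcripts. The ID family median was 0.33 without those, and the latent TGF-beta median was 0.055 with no floor and 0 without those. The cause of these moves was not tested, except that fewer genes enter under a higher floor or without those probe sets. The remaining 123 of 165 recomputed counts and medians, the counts of 2 above included, moved by at most 1.5 times (counts) or by less than the spread of all differences (medians). Dim signal limits BMP2, PMEPA1 and SMAD6.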
